A study of Mus musculus with 49 samples.

Results

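The genes described are 9 that build, buffer or turn over the actin cytoskeleton of neurons. They were named as a set of 10 (Tmsb4x, Tmsb10, Actb, Actg1, Cfl1, Pfn1, Pfn2, Marcks, Marcksl1 and Gap43), of which 9 are among the 9020 genes of the expression table, and the level of Actg1 was not analysed here. Their values come from 49 single neurons of the primary somatosensory cortex (S1) of wild-type (WT) CD1 mice. The neurons were labelled in the embryo with FlashTag (FT), a dye injected into the ventricle that marks dividing apical progenitors and their newborn daughters, at E13.5, and were collected at P7 by Patchseq, in which the content of a neuron is aspirated through a patch pipette and its RNA is sequenced. All cells share this genotype, strain, label and age and none was treated. FT+ neurons were chosen for brightness under the microscope, and since the labels give each cell's library pool but not its animal, the 49 cells count as 1 sample. Accordingly no test was run and no p-value is given, and correlations between cells are descriptions.

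Each cell was sequenced in 1 of 5 library pools, which held 12, 9, 9, 9 and 10 cells, to a depth of 209850 to 35342325 reads with a median of 1240101. Levels are given as the deposited RPM, in which each cell's reads are scaled to 1000000, from libraries of transcript 3′ ends without molecular identifiers. A single read was worth between 0.0283 and 4.77 RPM. Neuronal RNA was checked with Map2, Snap25, Stmn2 and Syt1, of which at least 2 reached 100 RPM in each of the 49 cells and all 4 did so in 35. Cell 5 of pool 5 also met this limit, with 10222 RPM summed over microglial marker genes and 24.7 RPM over excitatory ones. At least 2 excitatory marker genes reached 10 RPM in 36 cells, and at least 2 inhibitory ones did so in 17. Blood RNA was uneven, and hemoglobin genes took 68.8% of the reads of cell 1 of pool 3.

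Actin exists as free monomers and as filaments, and growing axons and dendrites constantly exchange one for the other. The β-thymosins Tmsb4x and Tmsb10 bind monomers and hold them in reserve, the profilins Pfn1 and Pfn2 deliver monomers to filament ends, and cofilin (Cfl1) severs and disassembles old filaments. Marcks, Marcksl1 and Gap43 are lipid-anchored membrane proteins and substrates of protein kinase C that tie the actin layer to the membrane, and Gap43 is a classical marker of growth cones.

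The promoters of Tmsb4x, Cfl1, Pfn1 and Marcksl1 are shown because the 5 highest correlations within the set all lay among these 4 genes. Sequences were taken from RefSeq on GRCm38.p6 and end at the transcription start, except that 97 bases of the Tmsb4x window that GENCODE places inside the gene were left out. Tmsb4x lies at chrX:167209316-167209468 on the minus strand, Cfl1 at chr19:5490205-5490454 on the plus strand, Marcksl1 at chr4:129513331-129513580 on the plus strand and Pfn1 at chr11:70654651-70654900 on the minus strand, where the window overlaps an exon of Gm12319. Capitals mark the motifs found, which are GGGCGG in Tmsb4x, CCAAT in Cfl1, CCGCCC (the reverse complement of GGGCGG) at 2 places in Pfn1 and ATTGG (the reverse complement of CCAAT) in Marcksl1.
Tmsb4x: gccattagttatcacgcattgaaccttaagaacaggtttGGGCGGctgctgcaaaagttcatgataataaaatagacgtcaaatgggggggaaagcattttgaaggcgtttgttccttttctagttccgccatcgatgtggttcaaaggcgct
Cfl1: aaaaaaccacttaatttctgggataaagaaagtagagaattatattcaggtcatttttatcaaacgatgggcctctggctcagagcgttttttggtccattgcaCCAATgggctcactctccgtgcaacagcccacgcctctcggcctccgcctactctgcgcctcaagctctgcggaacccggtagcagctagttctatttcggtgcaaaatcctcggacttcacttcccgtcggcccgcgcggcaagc
Pfn1: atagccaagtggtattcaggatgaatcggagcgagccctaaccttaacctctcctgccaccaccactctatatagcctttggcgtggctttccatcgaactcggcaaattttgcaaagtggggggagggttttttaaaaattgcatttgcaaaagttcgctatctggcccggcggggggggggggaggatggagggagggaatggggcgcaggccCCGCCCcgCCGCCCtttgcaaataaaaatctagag
Marcksl1: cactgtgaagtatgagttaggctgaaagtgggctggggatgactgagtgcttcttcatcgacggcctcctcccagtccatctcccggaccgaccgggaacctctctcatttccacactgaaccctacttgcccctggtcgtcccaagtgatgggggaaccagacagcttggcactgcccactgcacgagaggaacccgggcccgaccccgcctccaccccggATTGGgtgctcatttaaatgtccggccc

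Of the 9 genes, Tmsb4x, Tmsb10, Cfl1, Pfn1, Pfn2 and Marcksl1 were matched to RefSeq windows of 250 bases before the start, and Actb, Marcks and Gap43 were not. The 6 genes have 8 windows in all because Tmsb10 has several starts. Both strands were searched for 4 motifs, allowing overlaps. The CArG box, the binding motif of serum response factor known from many actin genes, was found in the windows of 0 of these 6 genes, none of which is an actin, and 1.47% of the 32851 promoter windows of the genome hold it. The window of the actin gene Actg1, whose level was not analysed, held 1 CArG box at positions -90 to -81 from its start. TATAAA was likewise found in 0 of the 6 genes, against 12.4% of all windows. GGGCGG was present for 4 genes (Tmsb4x, Tmsb10, Pfn1 and Pfn2) and CCAAT for 2 (Cfl1 and Marcksl1), where 32.7% and 33.8% of all windows hold them. These matches describe the letters of the windows only.

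All 9 genes were read in 49 of 49 cells (100%, exact Clopper-Pearson 95% interval 92.7% to 100%, counting error only), as were 731 of the 9020 genes, or 8.10%. The lowest number of reads behind any value was 3, for Marcks. Together the 9 genes took between 0.425% and 19.2% of a cell's reads, with a median of 2.03%. Tmsb4x accounted for a median of 48.1% of these reads (19.5% to 92.3%), and it had the most reads of the set in 47 cells and Gap43 in the other 2.

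Tmsb4x (GRCm38 chrX:167207093-167209315, minus strand) ranged from 1615 RPM in cell 12 of pool 1 to 177495 RPM in cell 5 of pool 5, with a median of 9619. Its median ranked 3 of 9020 genes by share of reads, just after Tuba1a (9733 RPM, an α-tubulin). The highest cell stood apart, since the next had 59666 RPM. Tmsb10 (chr6:72957347-72958748, minus strand) lay between 101 and 899 RPM with a median of 350, and its values spread evenly without a cell apart. Of the 100-base windows in the last 500 bases of its transcript, 31.7% also occur in transcripts of Gm3788 and Gm9844. Its level is thus uncertain to the extent that reads were split among them or left uncounted.

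Actb (β-actin, chr5:142903115-142906754, minus strand) ranged from 302 to 5214 RPM with a median of 2066. Pfn1 (chr11:70651850-70654644, minus strand), the profilin found in nearly all tissues, ranged from 79.9 to 7562 RPM with a median of 956. Pfn2 (chr3:57841895-57848079, minus strand), the profilin enriched in brain, ranged from 18.2 to 2449 RPM with a median of 657. Pfn1 and Tmsb4x had their highest values in the same cell, cell 5 of pool 5, in which Pfn2 was at its lowest. Cfl1 (chr19:5490455-5495201, plus strand) ranged from 75.4 to 824 RPM with a median of 370. Its exons overlap those of Snx32 on the other strand, which share 63.6% of the 100-base windows near the 3′ end. The sources used here do not say whether the counting used strand or how it treated reads that fit both genes. Reads of both genes may thus be mixed in the level of Cfl1, or reads of Cfl1 may have been left uncounted and its level understated. Snx32 itself had a median of 37.3 RPM and exceeded Cfl1 in 4 cells, and its Spearman's rho with Cfl1 was -0.05 over the 49 cells.

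Among the membrane-linked genes, Gap43 (chr16:42248442-42340651, minus strand) ranged from 54.5 to 9650 RPM with a median of 3064, which ranked 11 of 9020. Marcksl1 (chr4:129513581-129515985, plus strand) ranged from 31.5 to 3752 RPM with a median of 1251. Marcks (chr10:37133375-37138920, minus strand) ranged from 4.29 to 1878 RPM with a median of 530, the widest fold range of the 9 genes. The lowest values of Tmsb4x, Actb, Cfl1 and Pfn1 all fell in cell 12 of pool 1, a shallow cell of 225363 reads in which Gap43 stood at 4366 RPM.

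**Figure D1:**
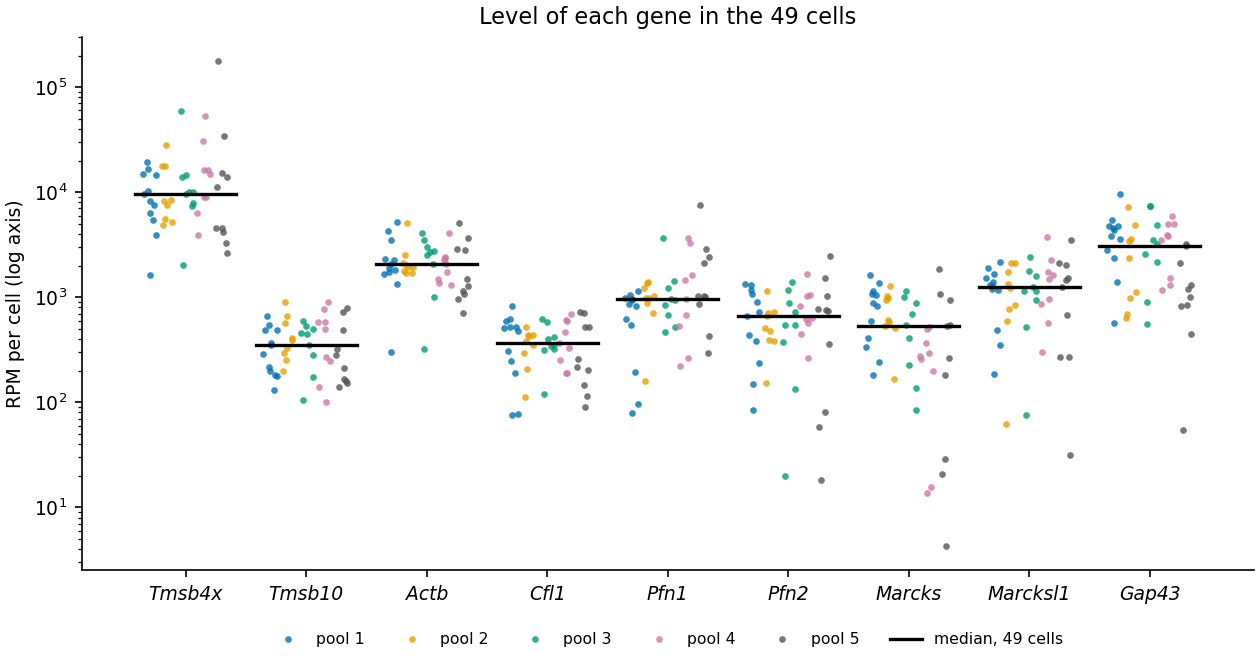
RPM on a log axis for each of the 9 genes in the 49 cells. Each point is 1 cell, coloured by its library pool, and the black bar is the median over the 49 cells. Tmsb4x lay above the other genes at a median of 9619 RPM, and Marcks and Pfn2 had single cells far below their medians of 530 and 657 RPM.

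Transcripts differ in length, so the order of levels was taken per kb of the principal transcript. The medians were 12525 RPM per kb for Tmsb4x, 2158 for Gap43, 1110 for Pfn1, 1076 for Actb, 779 for Marcksl1, 507 for Tmsb10, 280 for Pfn2, 157 for Cfl1 and 131 for Marcks. Tmsb4x exceeded Gap43 per kb in 47 of 49 cells, with a median log2 ratio of 2.71 that was larger than its SD between cells of 2.0. No other neighbours in this order differed beyond the SD of their ratio. Pfn1 and Actb were closest, with Pfn1 higher in 25 of 49 cells. Since the reads come from 3′ ends, dividing by length can understate the long transcripts Marcks, Cfl1 and Pfn2. Without it the order of RPM medians was Tmsb4x, Gap43, Actb, Marcksl1, Pfn1, Pfn2, Marcks, Cfl1 and Tmsb10. In RPM the median log2 ratio of Tmsb4x to Gap43 was 1.82, within its SD of 2.0. No neighbours in the RPM order differed beyond the SD of their ratio.

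The spread between cells, as the SD of log2(RPM + 1), was 0.85 for Tmsb10, 0.85 for Actb and 0.89 for Cfl1. These are small values for this table. Among the 1232 genes with a median of at least 100 RPM the median SD was 2.26, and from the largest SD down Tmsb10 ranked 1226, Actb 1225 and Cfl1 1223. Tmsb4x followed with 1.25, Pfn1 with 1.27, Gap43 with 1.39, Marcksl1 with 1.43 and Pfn2 with 1.51. Marcks varied most at 1.88, still below the median gene, and ranked 893. The 1232 genes were not matched to the 9 for level, and the lowest median of the 9 was 350 RPM.

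For most of the genes the library pools took a small share of this spread. Of the variance of log2(RPM + 1), the share between pools was 1.56% for Actb, 2.25% for Marcksl1, 2.70% for Cfl1, 3.40% for Tmsb4x, 4.28% for Pfn2, 4.65% for Tmsb10 and 13% for Pfn1, where pools without influence would give 8.33% on average. Gap43 (23.6%) and Marcks (20.6%) differed more between pools. The pool medians of Gap43 were 4118, 2386, 3180, 3861 and 1108 RPM in pools 1 to 5, so that pool 5 was lowest and differed 3.72-fold from pool 1. Those of Marcks were 861, 606, 539, 277 and 399 RPM, a 3.11-fold range with pool 4 lowest. Ranges of single cells overlapped between all pools for both genes, and pool 1 was also the deepest, with a median of 9870201 reads against 814366 to 1409643 in the others. Whether pool or cell identity set these levels cannot be told apart, because each cell is in a single pool.

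Some cells also held reads of marker genes of microglia, the macrophages of the brain, which are known to express Tmsb4x strongly. The summed level of 9 microglial markers (C1qa, C1qb, C1qc, Ctss, Csf1r, P2ry12, Tyrobp, Fcer1g and Trem2) ranged from 0 to 10222 RPM with a median of 25. In 5 cells it was at least 1500 RPM, a limit set after the values were seen, with 1915 RPM in the lowest of the 5 and 1074 RPM in the next cell. All 9 markers reached 10 RPM in 4 of the 5 cells and 7 did in the fifth, cell 5 of pool 5, in which Ctss and Csf1r were at 0.

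Tmsb4x was at 17615, 34630, 53285, 59666 and 177495 RPM in these 5 cells, which include the 4 highest of all. The 44 other cells ranged from 1615 to 30950 RPM with a median of 8708, and 4 of them exceeded the lowest of the 5. Pfn1 was at 1363 to 7562 RPM in the 5 cells against a median of 947 in the rest, and they held its 3 highest values. Actb and Cfl1 were above the median of the rest in 5 of 5 cells, whereas Gap43 was below it in all 5, at 54.5 to 2608 RPM against 3304. Pfn2 exceeded the median of the rest in 1 of 5, Tmsb10 in 2, and Marcks and Marcksl1 in 4. Cell 5 of pool 5 combined the highest Tmsb4x and Pfn1 with the lowest Gap43 and Pfn2 and the lowest sum of growth cone genes (7400 RPM). A high Tmsb4x was also seen without these markers, at 30950 RPM in cell 9 of pool 4, where their sum was 0, and at 27991 RPM in cell 6 of pool 2, where it was 17.7 RPM. Within the 44 cells the rho of Tmsb4x with the microglial sum was -0.03. The part of microglial RNA in the levels of the 5 cells was not tested. Markers of other glia were read too. At least 2 markers reached 10 RPM in 19 cells for astrocytes and 17 for the oligodendrocyte lineage, against 16 for microglia. The rho with summed astrocyte markers was 0.31 for Pfn1 (0.23 to 0.77 in single pools) and 0.27 for Tmsb4x (-0.18 to 0.53). With the microglial sum it was 0.26 for Pfn1 and 0.24 for Tmsb4x over the 49 cells.

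**Figure D2:**
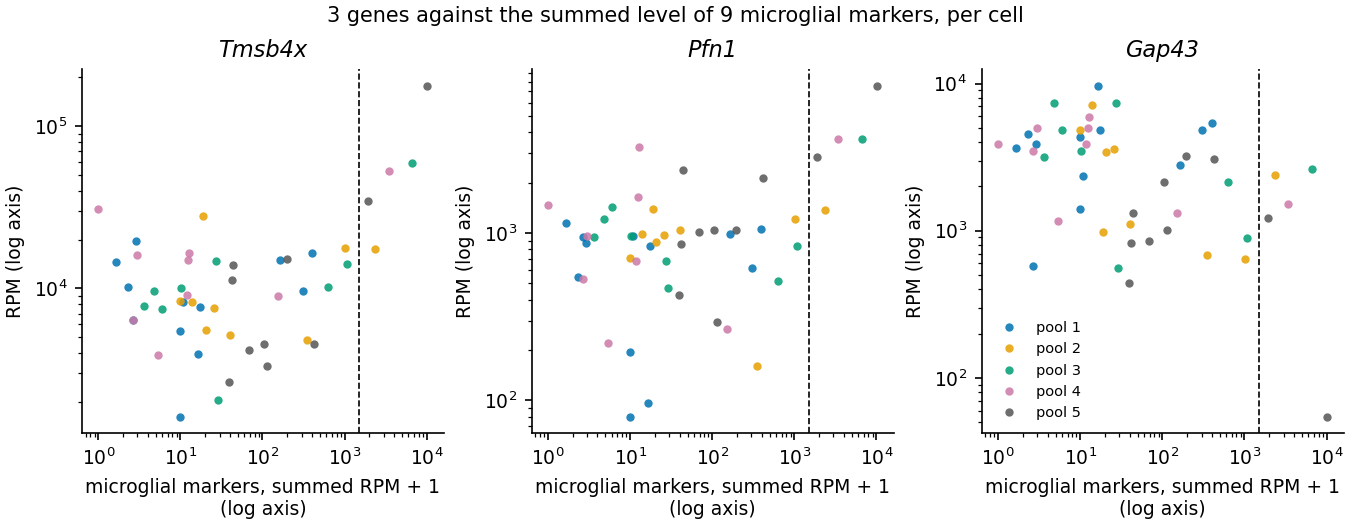
Tmsb4x, Pfn1 and Gap43 in RPM (log axis) against the summed RPM of 9 microglial markers plus 1 (log axis). Each point is 1 of 49 cells, coloured by library pool, and the dashed line marks the limit of 1500 RPM. The 5 cells to its right hold the 4 highest values of Tmsb4x and the 3 highest of Pfn1, and Gap43 was at most 2608 RPM in them.

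Shares within pairs of related genes do not depend on the total of the cell. Tmsb4x made up 81.6% to 99.9% of the reads of both thymosins, with a median of 96.5%, and exceeded Tmsb10 in 49 of 49 cells. Tmsb10 may be undercounted in this pair, since 31.7% of its windows near the 3′ end also occur in other genes, against 0% for Tmsb4x. As a ratio, Tmsb4x had between 4.44 and 1278 times the reads of Tmsb10, with an SD of the log2 ratio of 1.40. The same SD was 1.87 for the profilins and 2.44 for Marcks and Marcksl1. Pfn1 made up 28.4% to 99.8% of profilin reads, with a median of 55.9% (SD 19.8), and exceeded Pfn2 in 29 cells and not in 20. The highest shares of Tmsb4x and of Pfn1 were both in cell 5 of pool 5, which had 10222 RPM of microglial markers. Outside the 5 cells with such markers, Pfn1 reached 96.4% in cell 8 of pool 5 and 95.9% in cell 1 of pool 3. Per kb, which raises the shorter Pfn1, its median share was 77.5% and it was the higher profilin in 49 of 49 cells. The share of Pfn1 thus differed widely between cells, and which profilin was higher depended on the scale. With reads from 3′ ends, dividing by length can understate the longer gene of a pair, such as Pfn2. Marcks made up 0.636% to 96.8% of the reads of Marcks and Marcksl1, with a median of 35.9% (SD 24.6). Marcksl1 was higher in 41 cells and Marcks in 8, and per kb, where the median share of Marcks was 18.1%, Marcksl1 was higher in 45. The extremes were both in pool 5, cell 4 with almost no Marcks and cell 6 with almost no Marcksl1. The median share of Marcks was 41.2% in pool 1 and 19.6% in pool 5.

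**Figure D3:**
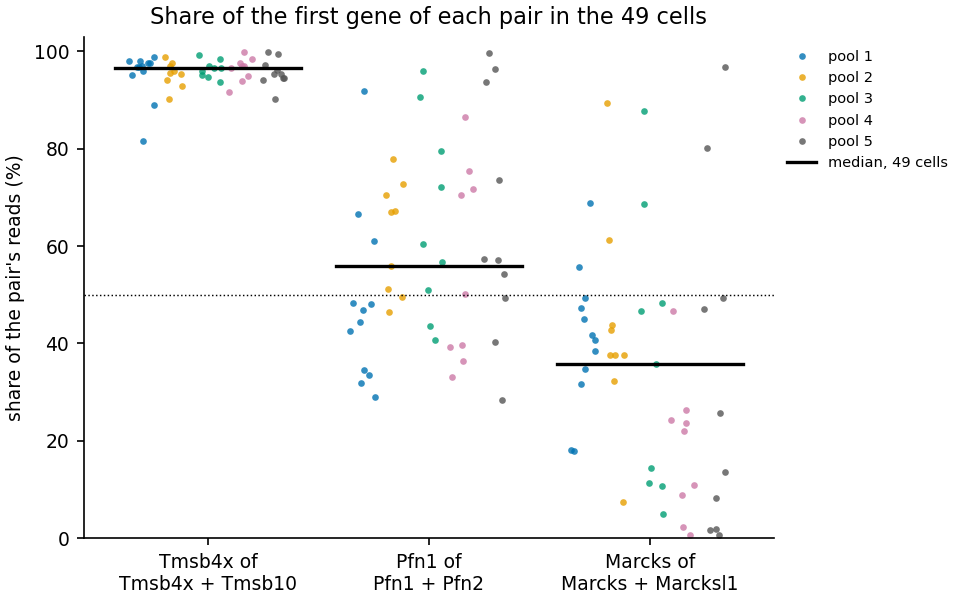
Share of the first gene of each pair in the pair's reads (%), 1 point per cell coloured by library pool, with the median over 49 cells as a black bar and 50% as a dotted line. Tmsb4x held at least 81.6% in every cell, while the shares of Pfn1 and Marcks spread from 28.4% to 99.8% and from 0.636% to 96.8%. Tmsb10 may be undercounted. The highest shares of Tmsb4x and Pfn1 are both in cell 5 of pool 5, which had the highest sum of microglial markers.

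Correlations between the genes were computed from log2(RPM + 1) over the 49 cells, which share library pools, differ in depth and are scaled to a common total. Of the 36 pairs, 6 (16.7%) reached a Spearman's rho of 0.5, against 0.506% of the 6947128 pairs of the 3728 genes read in at least 40 cells. The median rho was 0.32 over the 36 pairs and 0.08 over all pairs, and 31 pairs were above 0 and 5 below. These shares are not matched for level. The lowest median of the 9 genes was 350 RPM, whereas only 1232 genes of the table had a median of at least 100 RPM. A background of genes of like level was not computed. The number of pairs at 0.5 or more was 9 without the 5 cells with at least 1500 RPM of microglial markers, 10 without pool 1 and between 4 and 7 under the other settings tried.

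The 5 highest values joined Tmsb4x, Cfl1, Pfn1 and Marcksl1. Among Tmsb4x, Cfl1 and Pfn1, the monomer buffer, the severing factor and the monomer carrier, rho was 0.67 for Tmsb4x and Cfl1, 0.64 for Tmsb4x and Pfn1 and 0.57 for Cfl1 and Pfn1. Pearson's r was 0.70, 0.75 and 0.65 in the same order. Without the 5 cells with microglial markers the values of rho were 0.64, 0.52 and 0.50, and with ranks centred within pools 0.68, 0.68 and 0.63. In single pools they were above 0 in all 5, with ranges of 0.33 to 0.85, 0.17 to 0.90 and 0.37 to 0.73. Marcksl1 went with Cfl1 at 0.63 (0.45 to 0.75 in single pools) and with Pfn1 at 0.53, where a single pool was at -0.05. Tmsb10 and Gap43 formed the sixth pair at 0.50 (0.35 to 0.78 in single pools). The rho of Tmsb4x and Gap43 was 0.13 and that of both thymosins with each other 0.30. Without the 5 cells with microglial markers these values were higher, at 0.31 and 0.50, beside 0.48 for Tmsb10 and Gap43.

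For Actb, the filament subunit itself, the highest rho was 0.44, with Tmsb4x, followed by 0.41 with Tmsb10, and it was 0.34 with Pfn1, 0.32 with Cfl1 and 0.15 with Pfn2. The value with Tmsb10 was 0.56 without pool 5 and 0.54 without the 5 cells with microglial markers, and that with Tmsb4x was 0.56 without pool 1 and 0.57 as Pearson's r, so these pairs pass 0.5 under some settings. Both profilins shared a rho of 0.21. Over the 49 cells the rho of Marcks with the 8 other genes lay between -0.21 (Gap43) and 0.12 (Actb), and it was -0.01 with Marcksl1. Single pools differed, from -0.50 to 0.41 with Marcksl1 (above 0 in 4 of 5 pools). With Tmsb4x they ranged from -0.21 to 0.63 (above 0 in 3). The low values over all cells thus do not show that Marcks varied apart from the set within pools.

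**Figure D4:**
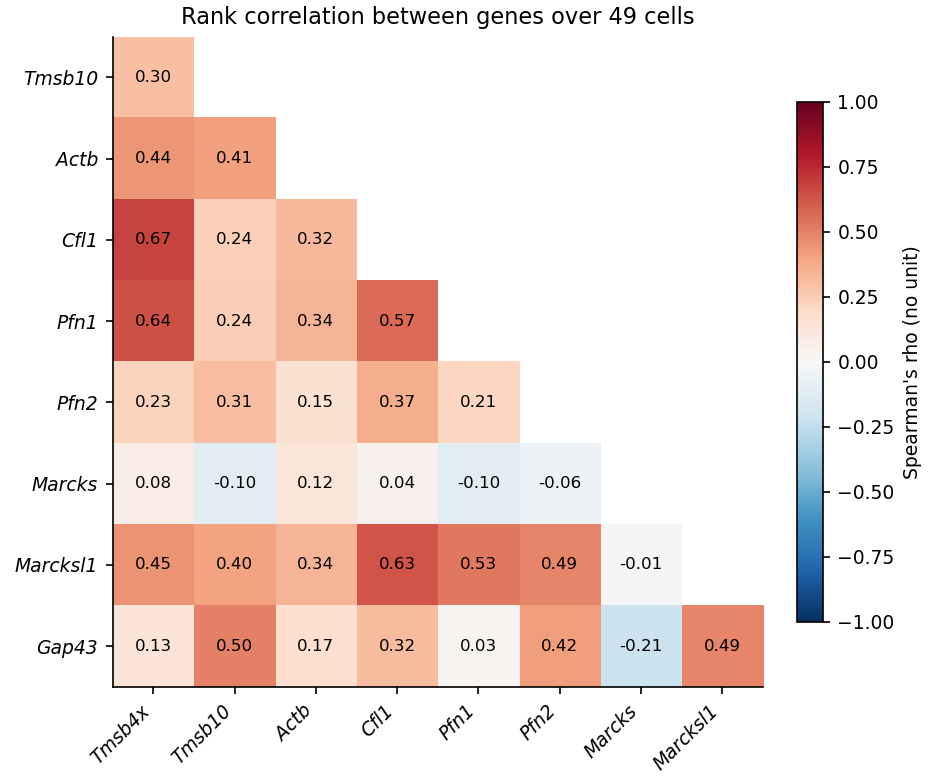
Spearman's rho between the 9 genes over 49 cells, written in each square and coloured from blue (-1) to red (1). The 5 highest values, from 0.53 to 0.67, lie among Tmsb4x, Cfl1, Pfn1 and Marcksl1, though Tmsb4x with Marcksl1 is at 0.45, and the row and column of Marcks stay between -0.21 and 0.12.

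The genes were next set beside summed lists of markers, from which they themselves were left out. Gap43 followed the growth cone list (13 genes such as Basp1, Dpysl3, Dcx and Tuba1a) with a rho of 0.78, and the value was between 0.47 and 0.88 in single pools. Tuba1a is the most abundant gene of that list, and without it rho was 0.63. Pfn2 (0.54), Marcksl1 (0.52) and Tmsb10 (0.50) also followed this list, and without Tuba1a their values were 0.36, 0.40 and 0.38. The values of Tmsb4x (0.04), Pfn1 (0.09) and Marcks (-0.0042) were near 0, and those of Cfl1 and Actb were 0.31 and 0.25. Without the 5 cells with microglial markers, Tmsb4x was at 0.28, Pfn1 at 0.32, Cfl1 at 0.51 and Actb at 0.41.

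Gap43, Marcksl1 and Pfn2 were also the genes that went with the list of synaptic and neurofilament genes of maturing neurons (Snap25, Syt1, Nefl and 6 others), at 0.56, 0.52 and 0.51. Gap43 had a rho of 0.48 with excitatory markers (-0.17 to 0.82 in single pools). With microglial markers its rho was -0.43, but this differed in direction between pools (-0.67 to 0.48) and was -0.25 with ranks centred within pools. Lists of layer markers gave low values throughout. The highest were 0.38 for Tmsb10 with layer 5 genes (Bcl11b, Fezf2, Crym, Ldb2 and Pcp4), with a range of -0.20 to 0.73 in single pools, and 0.30 for Marcks with superficial layer genes (Cux1, Cux2, Rorb and 3 others).

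**Figure D5:**
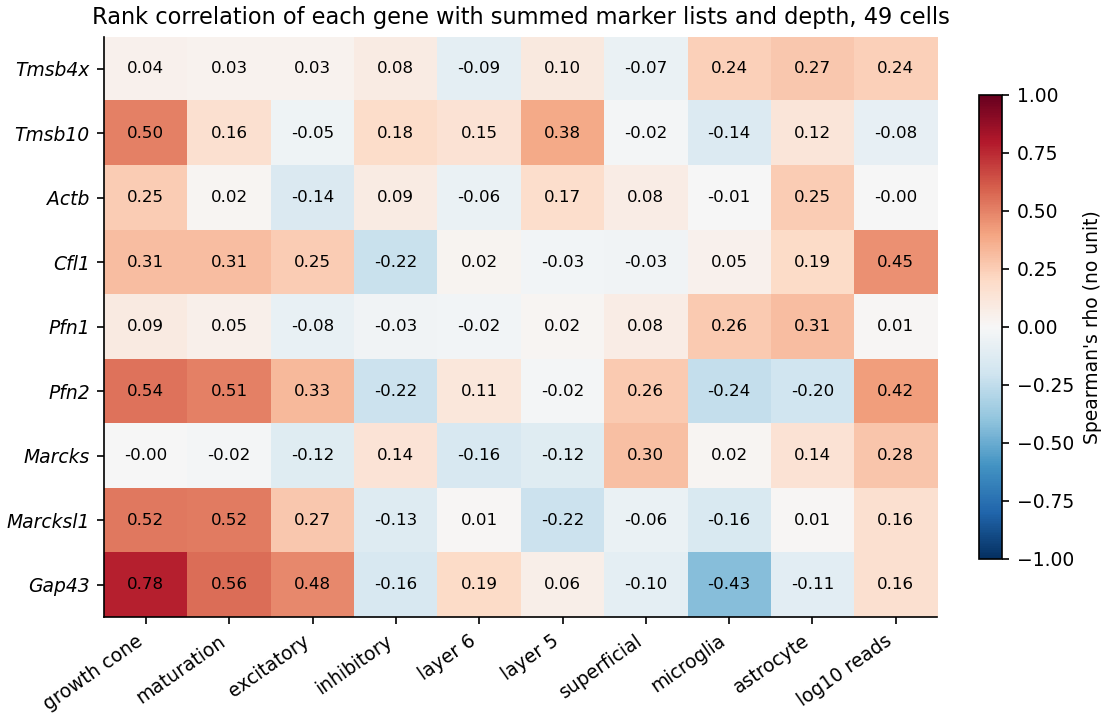
Spearman's rho of each of the 9 genes with the summed RPM of marker lists and with log10 of the reads of the cell, over 49 cells, written in each square and coloured from blue (-1) to red (1). Gap43 with the growth cone list is highest at 0.78 and Gap43 with microglial markers lowest at -0.43.

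Depth and RNA quality moved with some of the genes. Spearman's rho with log10 reads was 0.45 for Cfl1 and 0.42 for Pfn2, and between -0.08 and 0.28 for the others. Spearman's rho with the mitochondrial share of reads was -0.54 for Pfn2, -0.47 for Cfl1, -0.45 for Marcksl1 and -0.39 for Gap43. With depth held constant, Tmsb4x and Cfl1 kept a rho of 0.65 and Cfl1 and Pfn1 one of 0.63, whereas that of Cfl1 and Pfn2 went from 0.37 to 0.22.

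The genes of a wider actin list mostly took fewer reads than the 9 but more than the table as a whole. Of a list of 104, 83 are in the table, with a median of their medians of 46.1 RPM against 3.87 RPM over all 9020 genes. A median of at least 100 RPM was found for 28 of the 83 (33.7%, against 13.7% of all genes), one under 10 RPM for 30 (36.1%, against 61.8%), and reads in at least 40 cells for 55 (66.3%, against 41.3%). By class, the medians were led by Arpc5 (491 RPM), Arpc2 (454) and Arpc5l (285) of the Arp2/3 complex, which starts branches on filaments, and by Brk1 (451), Abi2 (194) and Cyfip2 (168) of the WAVE complex that activates it. Among capping and severing factors Capzb (422), Capza2 (313) and the muscle-type cofilin Cfl2 (261) led. Cdc42, a small GTPase that directs filament growth, had 1128 RPM, followed by the GDP dissociation inhibitor Arhgdia (216) and Rac3 (32.4).

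The pointed-end cap Tmod2 (733), the myosin light chain Myl12b (597) and Tpm3 (204) led the tropomyosin and myosin class, and the spectrins Sptan1 (389) and Sptbn1 (200.6) and drebrin (Dbn1, 155) the crosslinkers. Kinases and phosphatases of cofilin were low, with medians of 55.8 RPM for Limk2, 26.5 for Ssh2 and 1.5 for Ssh1, as were the filament elongators Enah (51.5), Daam1 (30.6) and Fmn2 (2.33). Ptma (114), Actr1b (107) and Actr1a (95.3) led the remaining class, which groups other actins and thymosins by name and not by a part in actin turnover. None of these values is per length.

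With Tmsb4x, 3 of these 55 genes (5.45%) reached a rho of 0.5, against 76 of all 3728 genes (2.04%), and all 3 belong to the Arp2/3 complex: Arpc5l (0.58), Arpc4 (0.53) and Arpc2 (0.50). These values include the 5 cells with microglial markers, and values without those cells are not given here. The median rho over the list was 0.12 with Tmsb4x and 0.06 with Actb, beside 0.07 and 0.01 over all 3728 genes, which were not matched to the list for level. The WAVE subunit Abi2 had a rho of -0.49 with Actb.

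The genes most like each of the 9 were sought among 3727 others by rho over the 49 cells. For Tmsb4x these were Rpl37rt (0.68), Rnf7 (0.68), Cfl1 (0.67), Rpl37 (0.67) and Rps10 (0.67), so that Cfl1 ranked 3 and 3 ribosomal protein genes stood beside it. Rpl37rt is by its name a retrotransposed copy of Rpl37, and reads of that pair may be split between them. For Actb the list was Uqcrq (0.64), Ndufa13 (0.57), Nme1 (0.56), Rpl18 (0.55) and Mrpl33 (0.53), of which Uqcrq and Ndufa13 encode subunits of the respiratory chain. For Gap43 it was Tuba1a (0.75), Uchl1 (0.74), Ywhae (0.67), Calm2 (0.65) and Tubb3 (0.64), which are abundant neuronal genes that include both an α- and a β-tubulin.

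For 5 of the remaining genes the closest were Arhgdia for Cfl1 (0.77), Shfm1 for Pfn1 (0.66), Vamp2, a synaptic vesicle protein, for Pfn2 (0.66), Nme1 for Tmsb10 (0.63) and Basp1 for Marcks (0.57). Basp1 is a membrane protein of growth cones with properties like those of Marcks and Gap43. Nme1, a nucleoside diphosphate kinase, stood near both Tmsb10 and Actb. These orders depend on the setting, since with ranks centred within pools only 1 of the 5 genes nearest to Tmsb4x, 3 of those nearest to Actb and 3 of those nearest to Gap43 were found again.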

How the data were processed

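Single FT+ neurons labelled at E13.5 were collected at P7. The authors made 3′ cDNA (SMART-Seq v4) and Nextera XT libraries, which gave single-end reads of 100 bases. After alignment with STAR (GRCm38) and counting with HTSeq, they deposited RPM for 9020 genes in 49 cells. The submitters' processing notes also name mm10. Versions and the annotation are not given in the sources used here. All listed genes reach 100 RPM in at least 2 cells.

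Every value was divided by what 1 read is worth in its cell, which gave a whole read within 0.01 for 100% of those above 0, so that the reads and the depth of each cell (209850 to 35342325) were recovered. On simulated cells all 441980 values of 9020 genes were recovered. Planted correlations of 0, 0.3, 0.6 and 0.9 returned mean rho values of -0.04, 0.31, 0.60 and 0.87 over 25 pairs each. The SD of a single rho was 0.13, 0.11, 0.09 and 0.04 in the same order. The simulated pairs were of high level and carried no differences between pools. Levels are RPM and log scales have a pseudocount of 1. Intervals are exact Clopper-Pearson at 95%. No count model was fitted for a comparison, since there is 1 condition and no animal is named. edgeR served only for TMM scaling.

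Genes named are the 9 of the set, the 5 most like Tmsb4x, Actb and Gap43 and the 1 most like each other gene by rho among genes read in at least 40 cells, and the 3 with the highest median of each class of an actin list. The gene most like Marcksl1 is not reported here. Arpc4, Snx32 and single markers were named after their values were seen. The members and lists were chosen with earlier results of these data known. Coordinates and transcript lengths are from GENCODE M21 on GRCm38 and promoters from RefSeq on GRCm38.p6.

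Alternatives were other scalings, pseudocounts of 0.1 and 10, detection from 10 reads or 10 RPM, thinning to 358412 reads per cell (44 cells, 5 shallower ones left out), cells of at least 1000000 reads (29), other correlation measures and leaving out each library pool. Leaving out the 5 cells with microglial markers or the cell with most hemoglobin, shares per kb and the growth cone list without Tuba1a were added after seeing the data. The tools were R 4.3.3 with edgeR 4.0.16, and Python 3.11.15 with scipy 1.17.1, pandas 2.3.3, numpy 2.4.6 and, for plots, matplotlib 3.10.9.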

Additional observations from a re-analysis of the deposited data

How the results depend on the processing

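Over 10 other settings for each of the 9 genes, median levels moved by at most 1.29-fold (Cfl1 at 479 RPM in cells of at least 1000000 reads, and Gap43 at 2386 RPM without pool 1). Of 432 values of rho between pairs, 427 moved by less than the SD of rho between single pools. Pools hold only 9 to 12 cells, so this SD is wide and the count does not show that the values are stable. When single pools were left out, rho reached from 0.16 to 0.48 for Actb and Cfl1. It reached from 0.41 to 0.67 for Marcksl1 and Gap43, and neither pair counted as moved. The 5 values that moved by more than this SD were Tmsb4x and Tmsb10 (0.16 as Pearson's r, 0.50 without the 5 cells with microglial markers), Tmsb4x and Gap43 (-0.14 as Pearson's r), and Cfl1 and Pfn2 (0.22 with depth held constant, 0.52 without the 5 cells). The number of pairs at 0.5 or more was 10 without pool 1 and 6 with it. The share of cells with Marcks was 91.8% when 10 reads were required, and per kb the median share of Pfn1 in both profilins was 77.5% and that of Marcks in its pair 18.1%. Of the 5 genes most like each of Tmsb4x and Actb, 2 and 3 were kept among genes read in all cells, and 1 and 3 with ranks centred within pools, as were 3 for Gap43. The cause was not tested. Cells of few reads limit the lowest values, which rest on as few as 3 reads. No paired analysis was possible because the study holds 1 condition, without a second group to pair.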

Other observations

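Among the 3727 genes compared with Tmsb4x and with Tmsb10, Cacna2d1, a subunit of voltage-gated calcium channels, had the lowest rho with both, at -0.49 and -0.58 over 49 cells, and at -0.60 and -0.61 without the 5 cells with microglial markers. Its median level was 53.2 RPM, and it was singled out after its values were seen. The lowest rho with Actb was that of Zfp512b (-0.54).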
